A study of Homo sapiens with 8 samples.

Results

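Fibrillar collagens and the proteins that coat or accompany their fibres were examined in SCC25 cells after loss of the transcription factor ETS1. The 10 genes COL1A1, COL1A2, COL3A1, COL5A1, COL5A2, DCN, LUM, POSTN, CCDC80 and FN1 were chosen from their levels and differences in these same libraries, out of the 56638 gene symbols in each count table. Their levels and differences are therefore descriptions, and no p-value is given for them. Calls among them are counted, and nothing is read from those calls. All 10 were present in both tables and passed the filter on low counts in both.

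SCC25 is an established line from a squamous cell carcinoma of the tongue, and all cells were grown in serum-containing medium with hydrocortisone. The cells labelled siRNA control received control small interfering RNA, and those labelled ETS1_siRNA_KD, here called ETS1 siRNA, received a pool of siRNAs against ETS1. The cells labelled shCON carried a control hairpin, and those labelled shETS1 carried a hairpin against ETS1, which the sample titles give as shETS1_3, the hairpin the study calls sh3, both delivered by lentivirus and followed by puromycin selection. Each of the 4 groups had 2 libraries, which the study's methods call biological replicates for the siRNA treatments. For the hairpin libraries nothing in the labels or methods says that they came from separate cultures, so that their standard errors measure the spread between these libraries, which may be technical.

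Collagen chains are named for the type of collagen they form. Pro-alpha chains of type I collagen, from COL1A1 and COL1A2, are wound into a triple helix in the endoplasmic reticulum, secreted, trimmed and assembled into fibrils with type III collagen from COL3A1, while type V collagen from COL5A1 and COL5A2 starts fibrils and limits their width. The small leucine-rich proteoglycans decorin (DCN) and lumican (LUM) bind the fibril surface, periostin (POSTN) links collagen to other matrix proteins, CCDC80 encodes a secreted matrix protein, and fibronectin (FN1) forms the network on which cells assemble collagen. In tissue these genes are known mainly as products of fibroblasts, and carcinoma cells with mesenchymal features can express them too.

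Promoters were read from RefSeq (GRCh38.p14), from 250 bases before to 50 bases after the start, to set genes that were higher in shETS1 beside genes whose shCON and shETS1 libraries overlapped. The table held 4 of the 10 genes, POSTN and CCDC80 of the first kind and COL5A1, with the first of its 2 entries, and FN1 of the second. Capitals mark GGAA, the core that ETS factors recognise, on either strand, so that TTCC is marked as well. Matches of the longer motifs named below may overlap one another.
POSTN, chr13:37598719-37599018, minus strand: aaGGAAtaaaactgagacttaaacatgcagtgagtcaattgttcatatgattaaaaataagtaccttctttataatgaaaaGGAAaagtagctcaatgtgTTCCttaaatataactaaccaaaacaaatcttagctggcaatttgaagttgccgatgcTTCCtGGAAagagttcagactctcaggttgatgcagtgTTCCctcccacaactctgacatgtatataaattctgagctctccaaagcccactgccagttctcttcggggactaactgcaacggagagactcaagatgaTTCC
CCDC80, chr3:112641094-112641393, minus strand: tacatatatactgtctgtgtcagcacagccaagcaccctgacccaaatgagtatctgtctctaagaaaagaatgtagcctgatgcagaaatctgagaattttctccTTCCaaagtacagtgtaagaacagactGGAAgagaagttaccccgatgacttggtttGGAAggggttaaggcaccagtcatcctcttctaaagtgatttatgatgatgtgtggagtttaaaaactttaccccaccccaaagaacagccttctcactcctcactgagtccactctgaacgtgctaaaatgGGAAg
COL5A1, chr9:134641553-134641852, plus strand: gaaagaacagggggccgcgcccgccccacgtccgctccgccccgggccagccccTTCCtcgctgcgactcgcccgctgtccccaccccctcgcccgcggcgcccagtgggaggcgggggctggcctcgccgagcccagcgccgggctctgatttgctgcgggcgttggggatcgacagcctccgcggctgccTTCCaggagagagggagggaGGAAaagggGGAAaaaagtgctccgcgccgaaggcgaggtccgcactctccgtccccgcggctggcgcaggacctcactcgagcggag
FN1, chr2:215436019-215436318, minus strand: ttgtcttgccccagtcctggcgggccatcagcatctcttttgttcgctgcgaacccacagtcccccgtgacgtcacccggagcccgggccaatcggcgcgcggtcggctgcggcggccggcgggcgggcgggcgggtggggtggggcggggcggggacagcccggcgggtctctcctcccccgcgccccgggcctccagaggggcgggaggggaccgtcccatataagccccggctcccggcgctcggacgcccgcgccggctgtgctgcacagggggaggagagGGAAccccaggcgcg

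The 4-base core was found 7 times in the POSTN promoter, 4 times in that of CCDC80, 4 times in that of COL5A1 and 1 time in that of FN1. It was present in 95.5% of 34796 promoters of this length, with a median of 3 matches, so that its presence sets none of these genes apart. GC content was 39.0% for POSTN and 43.3% for CCDC80, and 74.0% for COL5A1 and 76.7% for FN1, beside a median of 58.7% over all promoters. TATAAA, searched on both strands, was found 2 times in the POSTN promoter and not in the other 3, and 11.6% of all promoters held it. GGGCGG was found 6 times in the FN1 promoter and 2 times in that of COL5A1, with 44.9% of all promoters holding it. The FN1 promoter also held CCAAT, present in 34.6% of promoters, and TGACGTCA, the cyclic AMP response element, present in 1.84%. Promoters of the other genes that were higher in shETS1 were not available. These 4 were grouped by values of the same libraries, so that nothing is read from their GC content and motifs.

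ETS1 itself checked the labels. The siRNA control libraries held 5726 and 3977 counts of it, against 299 and 268 with the ETS1 siRNA, and the shCON libraries 2069 and 1871, against 224 and 279 with the hairpin. The log2 fold change was -4.13 (SE 0.19) after siRNA and -2.89 (SE 0.10) after shRNA. Total counts per library ran from 15954616 to 20469763 in the siRNA table and from 23834078 to 25953213 in the shRNA table. The share of counts from structural RNAs that lack a poly(A) tail was at most 0.00339% in any siRNA library, 5.61% and 6.63% in shCON and 12.3% and 9.64% in shETS1, and their part in the values below was not tested. Genes with symbols that begin with MT- took 0% of counts in every siRNA library. They took 0.820% and 0.768% in shCON and 0.508% and 0.714% in shETS1. Why the tables differ in this was not tested. Of 14742 genes tested after siRNA, 3.41% were called at an adjusted p under 0.1 (edgeR's quasi-likelihood test with Benjamini-Hochberg adjustment), 1.13% higher and 2.27% lower. The hairpin comparison covered 16481 genes and called 60.6% of them, with 29.7% higher and 30.9% lower. The 4900 higher and 5088 lower calls became 3624 and 6269 when libraries were scaled by their size alone. The common dispersion, edgeR's estimate of spread between libraries of a group, was 0.0192 in the siRNA table and 0.00402 in the shRNA table. A difference of the same size was thus harder to call after siRNA, and a missing call there is not a missing difference.

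After the ETS1 siRNA, the median difference of the 10 genes was 0.28 on the log2 scale, beside 0.0018 over all genes tested. COL1A1 alone was called, higher, which is 1 of 10 genes, beside 3.41% of all genes tested. A positive fold change was found for 9 of 10. After the ETS1 shRNA the median was 2.47, beside 0.00066 over all genes. Of the 10 genes 8 were called, all higher, beside 60.6% of all genes called and 29.7% called higher. COL5A1 and FN1 were the 2 that were not. The values of each moved when single libraries were left out, as given with their levels, and FN1 passed the threshold under other filters. The libraries of knockdown and control did not overlap for 6 of the 10 genes after siRNA, against 51.9% of all genes tested, and for 8 of the 10 after shRNA, against 76.6%. Since the genes were chosen on these values, nothing is read from the counts.

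**Figure D1:**
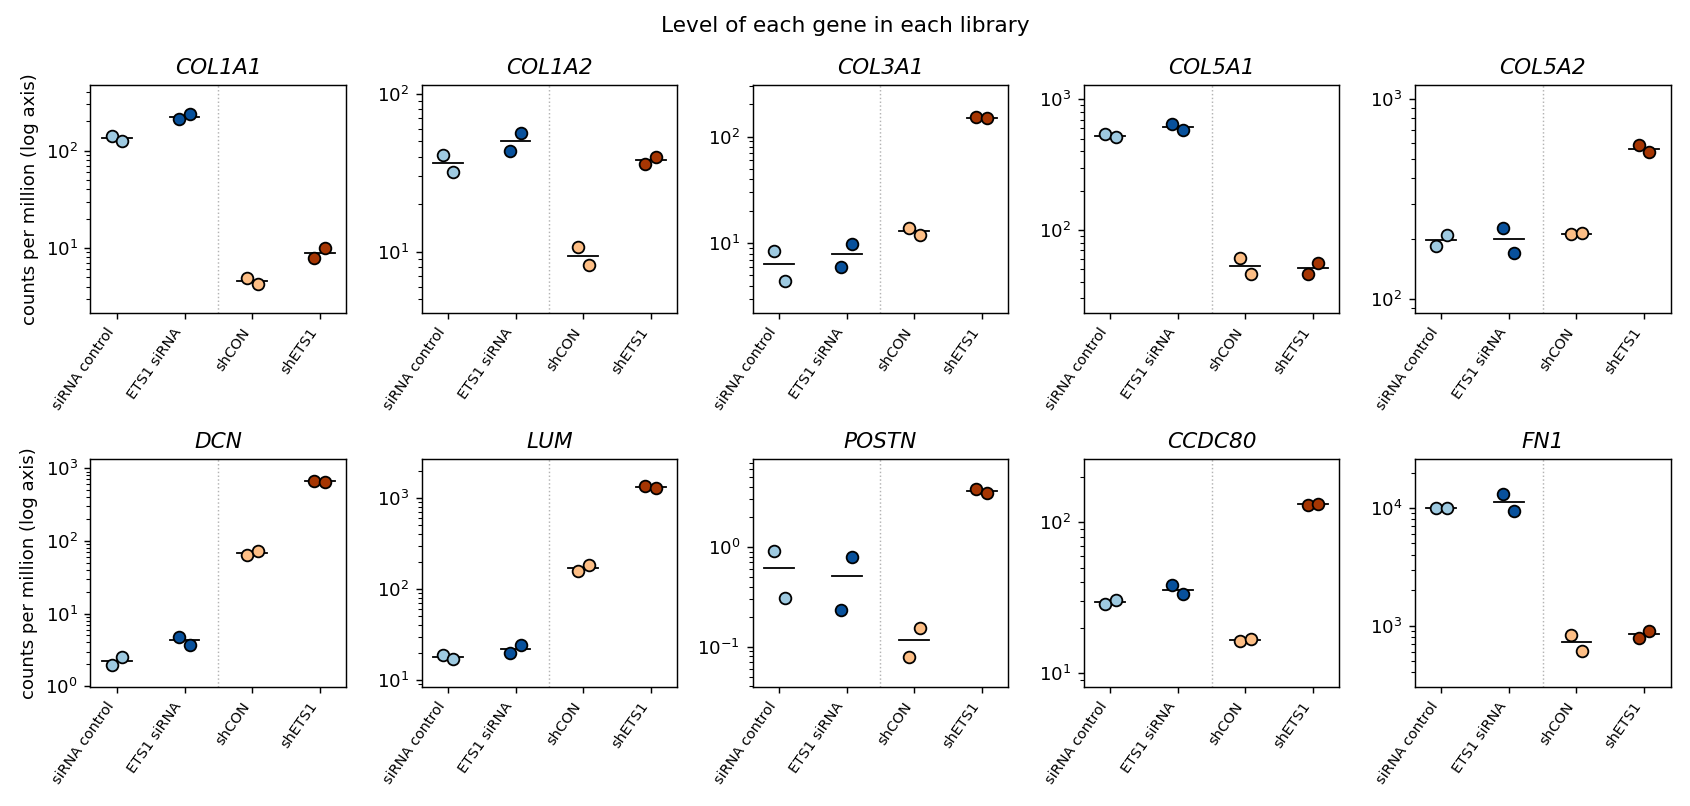
Level of each of the 10 genes in CPM (counts per 1000000, log axis, scaled within each table), with a point for each library, a line at the mean of the 2 libraries, and a dotted line between the siRNA and the shRNA tables. In 8 of the 10 panels both shETS1 points lie above both shCON points, and in those of COL5A1 and FN1 they overlap.

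The type I collagen chains were unequal in the size of their differences. Levels are given as CPM, the count per 1000000 of the library size after TMM scaling within a table. COL1A1, on chromosome 17 from 48261462 to 48278993 (GRCh37, minus strand), was at 143 and 126 CPM in siRNA control and at 210 and 237 CPM in ETS1 siRNA. In shCON it was at 4.85 and 4.27 CPM and in shETS1 at 7.79 and 9.86 CPM. Both knockdown libraries lay above both controls in each table, and the level was far lower in the shRNA table. The log2 fold change was 0.73 (SE 0.14) after siRNA and 0.96 (SE 0.16) after shRNA. The call after siRNA was lost without siRNA control replicate 1, at 0.83, and without siRNA control replicate 2, at 0.65.

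COL1A2, on chromosome 7 from 94024207 to 94060539 (plus strand), encodes the partner chain. It was at 40.8 and 32.2 CPM in siRNA control and at 43.5 and 56.9 CPM in ETS1 siRNA, while shCON had 10.8 and 8.20 CPM and shETS1 36.2 and 39.6 CPM. The groups were separate in both tables, narrowly after siRNA and widely after shRNA. The log2 fold change was 0.46 (SE 0.17) after siRNA and 2.00 (SE 0.12) after shRNA. Without ETS1 siRNA replicate 1 the COL1A2 value after siRNA was 0.64, and without ETS1 siRNA replicate 2 it was 0.25.

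COL3A1, on chromosome 2 from 189839099 to 189877472 (plus strand), encodes the chain of type III collagen. Its level was 8.45 and 4.42 CPM in siRNA control, 5.93 and 9.79 CPM in ETS1 siRNA, 13.9 and 11.9 CPM in shCON, and 152 and 148 CPM in shETS1. The siRNA libraries overlapped, and the shETS1 libraries stood well above shCON. The log2 fold change was 0.28 (SE 0.33) after siRNA and 3.54 (SE 0.09) after shRNA, the highest value of the 5 collagen chains.

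The chains of type V collagen went separate ways after shRNA. COL5A1, on chromosome 9 from 137533649 to 137736689 (plus strand), was at 540 and 510 CPM in siRNA control, 644 and 581 CPM in ETS1 siRNA, 60.7 and 46.4 CPM in shCON, and 46.4 and 55.5 CPM in shETS1. COL5A2, on chromosome 2 from 189896624 to 190090038 (minus strand), was at 185 and 208 CPM in siRNA control, 228 and 171 CPM in ETS1 siRNA, 211 and 213 CPM in shCON, and 585 and 540 CPM in shETS1. COL5A1 libraries overlapped in the shRNA table and were separate in the siRNA table, and those of COL5A2 did the reverse. The log2 fold changes of COL5A1 were 0.22 (SE 0.12) after siRNA and -0.07 (SE 0.11) after shRNA, and the latter changed sign, to 0.13 and 0.05, when shCON replicate 1 or shETS1 replicate 1 was left out. Without shCON replicate 2 or shETS1 replicate 2 the COL5A1 values after shRNA were -0.25 and -0.21. The log2 fold changes of COL5A2 were 0.02 (SE 0.16) after siRNA and 1.41 (SE 0.08) after shRNA.

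The proteoglycans of the fibril surface had higher levels in the shRNA table than in the siRNA table. DCN, on chromosome 12 from 91534261 to 91576994 (minus strand), was at 1.96 and 2.49 CPM in siRNA control and 4.82 and 3.69 CPM in ETS1 siRNA, from counts of 39, 40, 83 and 75. In shCON it was at 63.8 and 71.6 CPM and in shETS1 at 677 and 644 CPM. Groups were separate in both tables, with a log2 fold change of 0.94 (SE 0.27) after siRNA and 3.29 (SE 0.09) after shRNA. LUM, on the same strand from 91496406 to 91505271, was at 18.9 and 16.8 CPM in siRNA control, 19.7 and 24.5 CPM in ETS1 siRNA, 160 and 183 CPM in shCON, and 1355 and 1287 CPM in shETS1. Its groups were separate as well, by a small margin after siRNA. The log2 fold change of LUM was 0.31 (SE 0.16) after siRNA and 2.95 (SE 0.09) after shRNA.

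POSTN was the rarest of the genes. On chromosome 13 from 38136720 to 38172981 (minus strand), it had 18 and 5 counts with the control siRNA, 4 and 16 with the ETS1 siRNA, 2 and 4 in shCON, and 88 in each shETS1 library. The siRNA libraries overlapped, and the shETS1 libraries stood apart from shCON. After shRNA POSTN passed the filter only through shETS1, so it could only be called higher. The summed counts were 6 in shCON and 176 in shETS1, a ratio of 31.1 after scaling, with an exact 95% interval of 14.0 to 85.9 that covers counting error only. The fitted log2 fold change of 4.90 (SE 0.38) depends on the small count added before the logarithm, and after siRNA it was -0.26 (SE 0.67).

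CCDC80, on chromosome 3 from 112315644 to 112368377 (minus strand), was at 28.9 and 30.5 CPM in siRNA control, 38.5 and 33.3 CPM in ETS1 siRNA, 16.2 and 16.9 CPM in shCON, and 131 and 132 CPM in shETS1. Both knockdowns lay above their controls, with a log2 fold change of 0.27 (SE 0.13) after siRNA and 2.99 (SE 0.08) after shRNA.

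FN1 was the most abundant of the genes in the siRNA table. On chromosome 2 from 216225163 to 216300796 (minus strand), it was at 10016 and 10076 CPM in siRNA control, 13159 and 9494 CPM in ETS1 siRNA, 837 and 603 CPM in shCON, and 783 and 899 CPM in shETS1. The libraries overlapped in both tables. The log2 fold change was 0.17 (SE 0.16) after siRNA and 0.22 (SE 0.12) after shRNA. FN1 was called higher after shRNA without shCON replicate 1, at 0.47, and without shETS1 replicate 1, at 0.31, while the value was 0.01 without shCON replicate 2. After siRNA it was called higher without ETS1 siRNA replicate 2, at 0.39, and was -0.08 without ETS1 siRNA replicate 1. FN1 took 0.943% to 1.31% of all counts in the siRNA libraries and 0.0623% to 0.0884% in the shRNA libraries. The other 9 genes together took 0.0572% and 0.0574% of counts in shCON and 0.282% and 0.278% in shETS1.

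**Figure D2:**
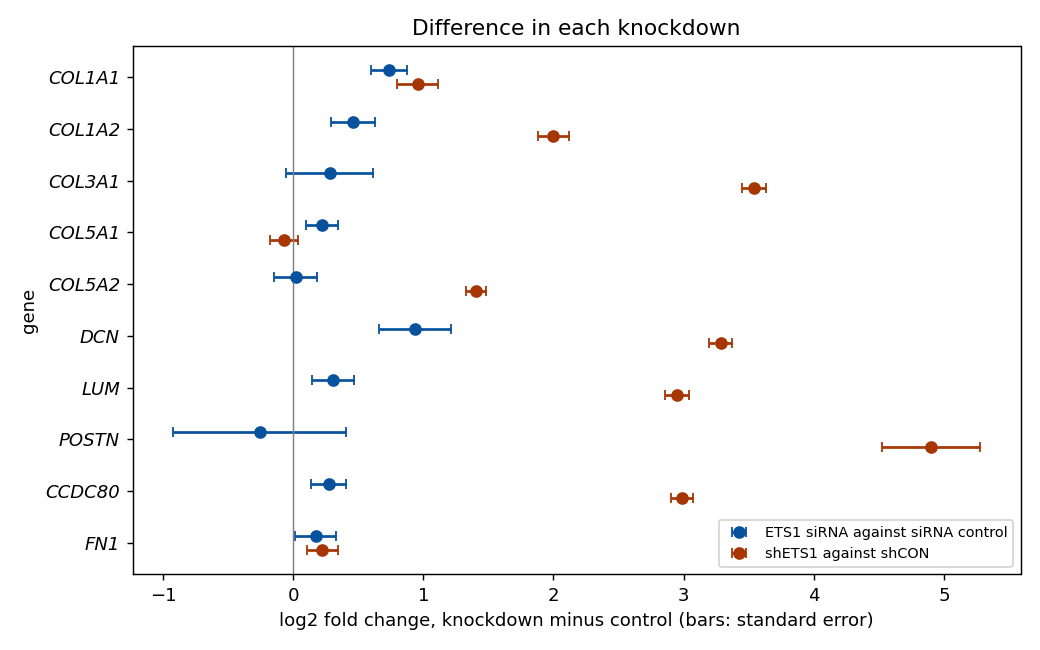
Log2 fold change of each gene, knockdown minus its own control, with standard errors as bars, for the ETS1 siRNA (blue) and the ETS1 shRNA (brown). After siRNA the values lie between -0.26 for POSTN and 0.94 for DCN, and after shRNA between -0.07 for COL5A1 and 4.90 for POSTN.

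The difference between the knockdowns, the shRNA effect minus the siRNA effect on the log2 scale, was fitted over all 8 libraries, where 34.8% of 17190 genes were called. It was 5.13 (SE 0.87) for POSTN, 3.24 (SE 0.37) for COL3A1, 2.70 (SE 0.15) for CCDC80, 2.62 (SE 0.18) for LUM and 2.33 (SE 0.23) for DCN. It was 1.52 (SE 0.24) for COL1A2 and 1.36 (SE 0.18) for COL5A2. For COL1A1 it was 0.20 (SE 0.20), for FN1 0.03 (SE 0.26) and for COL5A1 -0.31 (SE 0.20). The siRNA was a short treatment and the hairpin a lasting one, and the agent, the time, the library preparation and the table cannot be told apart in this difference.

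The control groups of the tables were also set side by side, on CPM scaled over all 8 libraries and with no test. COL1A1 was at 137 CPM in siRNA control and 4.49 CPM in shCON, 30.5-fold lower, FN1 at 10258 and 710 CPM, 14.5-fold lower, and COL5A1 at 536 and 52.8 CPM, 10.2-fold lower. DCN was at 2.27 and 66.7 CPM, 29.3-fold higher in shCON, and LUM at 18.2 and 169 CPM, 9.24-fold higher. COL5A2 was at 200.5 and 209 CPM. Of 17190 genes, 1.93% were at least 8-fold apart between the control groups, and the group and the table cannot be told apart.

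Genes can be ranked against one another after division by length, here the bases covered by any annotated exon. Per kilobase, FN1 was first and COL5A1 second in both siRNA groups. In shCON the order was LUM, FN1 and COL5A2, and in shETS1 it was LUM, COL5A2, DCN and FN1, with POSTN last in all 4 groups. Neighbours whose libraries overlapped were DCN and POSTN in siRNA control, COL5A2 and COL1A1 in ETS1 siRNA, DCN and COL5A1 in shCON, and DCN and FN1 in shETS1. With the length of the MANE Select transcript, a length chosen after the data were seen, FN1 came first in shCON and second in shETS1, while LUM stayed first in shETS1. Among all genes by level per length, LUM was at place 568 in shCON and 56 in shETS1, and FN1 at place 35 in siRNA control and 935 in shCON.

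**Figure D3:**
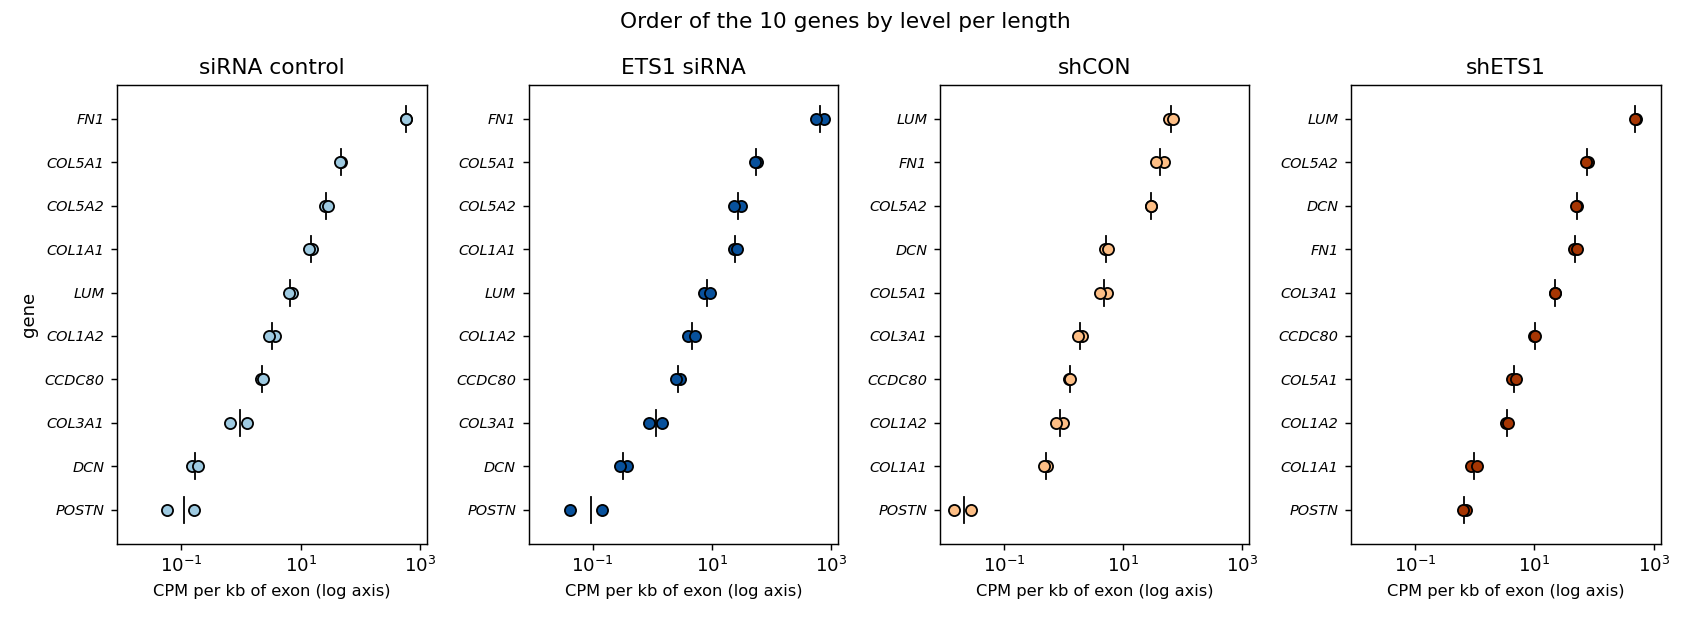
The 10 genes in each group ordered by CPM per kilobase of exon (log axis), with a point for each library and a line at the mean. FN1 is at the top in both siRNA groups and LUM in both shRNA groups, and POSTN is at the bottom of all 4.

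The chains of one collagen were not in a fixed proportion. The ratio of COL1A1 to COL1A2 per kilobase was 4.20 and 4.69 in siRNA control and 5.79 and 5.005 in ETS1 siRNA, and 0.540 and 0.626 in shCON and 0.258 and 0.299 in shETS1. It lay above 1 in every siRNA library and below 1 in every shRNA library, and lowest in shETS1. The mean ratio in siRNA control was 3.18 with the MANE Select transcripts, and a change of length moves all groups by the same factor.

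The siRNA control libraries had a ratio of COL5A1 to COL5A2 of 1.92 and 1.61 and the ETS1 siRNA libraries of 1.85 and 2.23, while shCON had 0.188 and 0.143 and shETS1 had 0.0521 and 0.0674. For COL3A1 to COL1A2 the siRNA control libraries had 0.331 and 0.220, the ETS1 siRNA libraries 0.218 and 0.275, shCON 2.07 and 2.31, and shETS1 6.74 and 5.98. In both pairs the siRNA groups overlapped, and the shETS1 libraries stood beyond shCON. The 2 proteoglycans LUM and DCN were at a ratio of 46.7 and 32.7 with the control siRNA, 19.8 and 32.2 with the ETS1 siRNA, 12.1 and 12.4 with the control hairpin, and 9.70 and 9.69 with the ETS1 hairpin. LUM was above DCN per kilobase in every library. With the MANE Select transcripts the ratio of LUM to DCN was 24.7 and 17.3 with the control siRNA. It was 5.13 and 5.13 with the ETS1 hairpin. The ratio of COL3A1 to COL1A2 in shCON was 1.20 and 1.34 with these lengths.

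**Figure D4:**
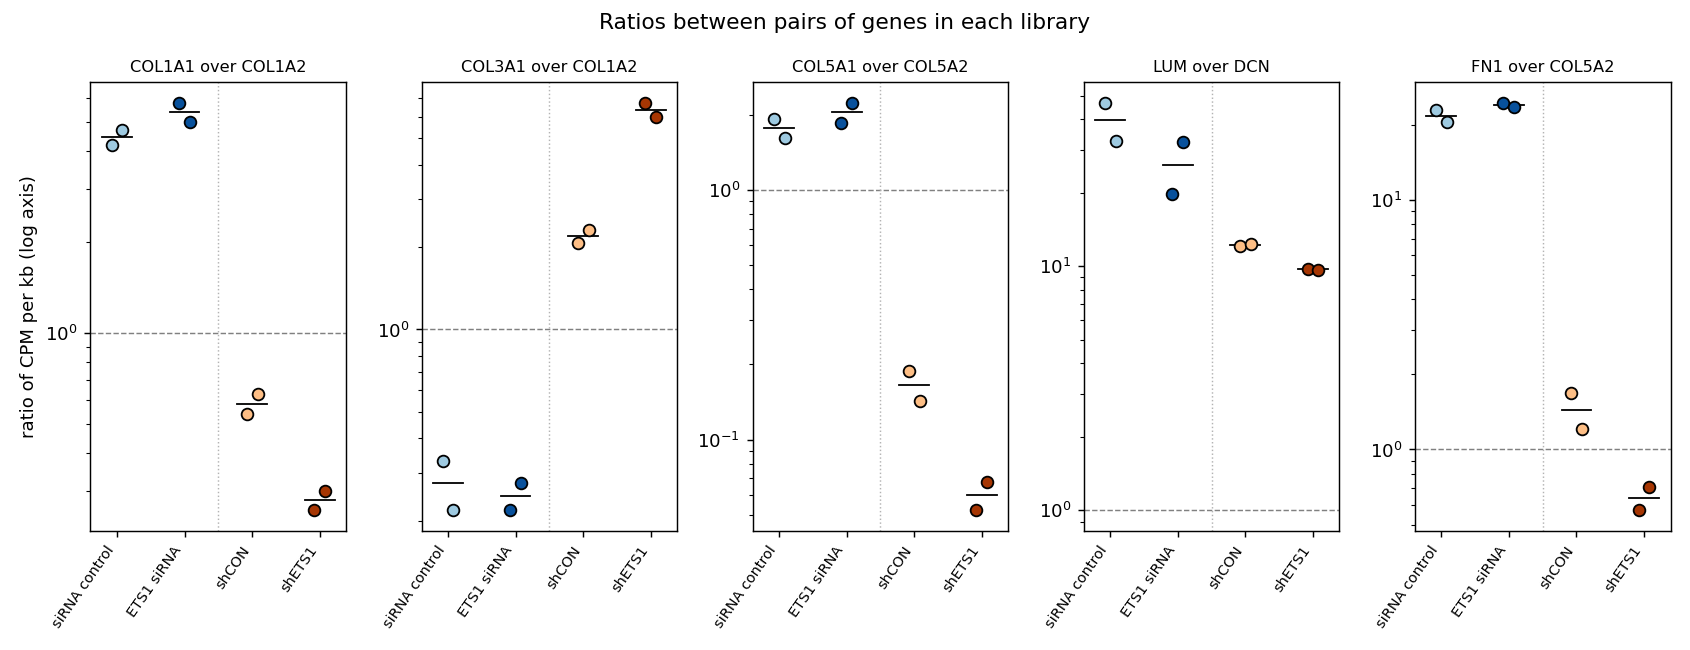
Ratios of CPM per kilobase between pairs of genes in each library (log axis), with a line at the mean of each group and a dashed line at 1. The ratios of COL1A1 to COL1A2 and of COL5A1 to COL5A2 lie above 1 in the siRNA libraries and below 1 in the shRNA libraries, and that of COL3A1 to COL1A2 does the opposite.

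Some of the genes are neighbours in the genome. COL3A1 and COL5A2 lie 19.2 kb apart on chromosome 2 on opposite strands, and their log2 fold changes after shRNA were 3.54 and 1.41. LUM and DCN lie 29.0 kb apart on chromosome 12 on the same strand, with 2.95 and 3.29. KERA, which encodes the corneal proteoglycan keratocan and lies on the other side of LUM, had at most 1 count in any library. BTG1, an antiproliferative gene that is the next protein-coding gene beyond DCN at 957.1 kb, rose by 1.35 (adjusted p 2.49e-10, edgeR) after shRNA. ATIC, an enzyme of purine synthesis 10.7 kb from FN1, fell by 1.51 after shRNA (adjusted p 8.56e-08, edgeR), on the log2 scale as for BTG1. SLC35A5, a nucleotide sugar transporter gene 11.2 kb from CCDC80, had a value of 0.11 that was not past the threshold (adjusted p 0.249, edgeR). Annotated genes that overlap the 10 were noncoding and had at most 6 counts where the tables list them.

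Among 10045 genes compared over the 8 libraries, the nearest in pattern to COL1A1, by the distance between log2 CPM values centred on the controls, were LRP11, ZNF35 and ZNF268, at distances of 0.33 to 0.43. Those of COL3A1 were MMP13, LUM and CCDC80, at 0.76 to 1.21, and those of COL1A2 were the chemokine gene CXCL14, the ephrin receptor gene EPHA4, and PAPLN, at 0.53 to 0.58. GPHN, CCNK and MLXIP were nearest to COL5A1 and ATP9B, MYH14 and TECPR2 to FN1, at distances up to 0.26. A small distance is easily reached by genes that differ little, as COL5A1 and FN1 do.

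FLI1, an ETS factor known as a repressor of COL1A2 in fibroblasts, was examined beside the collagen genes. It was at 29.8 and 32.1 CPM in siRNA control and 26.4 and 27.2 CPM in ETS1 siRNA, and at 25.2 and 24.7 CPM in shCON and 2.61 and 2.14 CPM in shETS1. The groups were separate in both tables, and the log2 fold change was -0.21 (SE 0.13, adjusted p 0.43, edgeR) after siRNA and -3.40 (SE 0.14, adjusted p 2.56e-12, edgeR) after shRNA. Whether it has a part in the collagen values was not tested.

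The other genes of the collagen pathway were taken from lists of 200 genes in 10 groups, counted with the same test. Among the other collagen chains, 24 of 38 were tested after siRNA and none was called by edgeR or DESeq2, beside 3.41% of all genes called by edgeR. Before adjustment 4 of them had a p under 0.05. After shRNA 25 were tested, of which 12 rose and 6 fell, or 9 and 9 with scaling by library size alone. The median log2 fold change was 0.32. COL22A1, among those that fell, had at most 33 counts in shCON and 3 in shETS1. It passed the filter only through shCON, so it could only be called lower. COL8A1, a short-chain collagen of vessel walls and the cornea, was at 35.1 and 33.0 CPM in shCON and 169 and 159 CPM in shETS1, a rise of 2.27 (SE 0.08, adjusted p 3.36e-13, edgeR). COL6A2 of beaded microfibrils rose by 1.16 (adjusted p 7.59e-08, edgeR), and COL4A5 of basement membranes by 0.80 (adjusted p 1.84e-07, edgeR). COL4A1, a main basement membrane chain that shares a start region with COL4A2, fell by 0.92 (adjusted p 4.28e-08, edgeR).

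Of the genes for folding, modification and secretion of collagen, 22 were tested after siRNA with none called by edgeR or DESeq2 and 4 at an unadjusted p under 0.05. After shRNA 21 were tested, with 7 higher and 8 lower (5 and 10 with scaling by library size alone) and a median of -0.03. PLOD2, the lysyl hydroxylase of collagen telopeptides, rose by 0.88 (adjusted p 2.66e-08, edgeR) and SEC23A, a coat protein of vesicles that carry procollagen, by 0.86 (adjusted p 2.97e-08, edgeR). FKBP10, a collagen chaperone of the endoplasmic reticulum, fell by 1.64 (adjusted p 1.13e-08, edgeR), and the lysyl hydroxylase PLOD3 by 0.94 (adjusted p 1.28e-07, edgeR). The list held genes that moved both ways.

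Some enzymes of procollagen cleavage and cross-linking were called higher after each knockdown. After siRNA 13 were tested and 2 rose, or 0 with the replicate number as a block, beside 1.13% of all genes called higher. After shRNA 12 were tested, with 4 higher and 3 lower (3 and 3 with scaling by library size alone). Over all genes 29.7% were called higher and 30.9% lower. LOX, lysyl oxidase, which cross-links collagen and elastin, was at 66.0 and 58.0 CPM in siRNA control and 105 and 122 CPM in ETS1 siRNA, and at 143 and 122 CPM in shCON and 277 and 367 CPM in shETS1. Knockdown libraries were above controls in both tables, with a rise of 0.87 (SE 0.14, adjusted p 0.0328, edgeR) after siRNA and 1.29 (SE 0.11, adjusted p 2.63e-08, edgeR) after shRNA. TGM2, a transglutaminase that cross-links fibronectin, rose by 0.67 (adjusted p 0.0376, edgeR) and by 1.31 (adjusted p 7.72e-08, edgeR). The siRNA call of TGM2 was lost without siRNA control replicate 1, at 0.64. PCOLCE2, an enhancer of procollagen C-proteinase, fell by 0.67 (adjusted p 0.000101, edgeR) and LOXL3, a relative of LOX, by 0.54 (adjusted p 0.00539, edgeR) after shRNA. ADAMTS2, the procollagen N-proteinase, was singled out after its values were seen. It had 6 and 2 counts in shCON and 165 and 203 in shETS1, a ratio of 48.8 with an exact 95% interval of 24.5 to 114 for counting error. ADAMTS2 passed the filter only through shETS1, so it could only be called higher.

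Among the other small leucine-rich proteoglycans, relatives of DCN and LUM, 6 of 15 were tested after siRNA with none called by edgeR or DESeq2 and 2 at an unadjusted p under 0.05, and 7 after shRNA, with 2 lower and none higher. ECM2 fell by 0.93 (adjusted p 3.35e-05, edgeR) and TSKU by 0.49 (adjusted p 0.000326, edgeR). Of fibronectin partners, matricellular and microfibril proteins, 27 were tested after siRNA with 1 lower. After shRNA 32 were tested, with 8 higher and 8 lower (7 and 12 with scaling by library size alone). Of those higher, SPARC, WISP1, WISP2 and FBLN2 had at most 9, 7, 6 and 7 counts in shCON. They passed the filter only through shETS1, where they had up to 80, 110, 16 and 19 counts. Their direction was thus set in advance. THBS1, thrombospondin-1, fell by 0.83 (adjusted p 0.0273, edgeR) after siRNA and by 0.70 (adjusted p 1.99e-05, edgeR) after shRNA, and its siRNA call was lost without siRNA control replicate 1, at -0.72. After shRNA, FBN2, a fibrillin of microfibrils, fell by 3.09 (adjusted p 3.13e-10, edgeR), NOV, a CCN family protein, by 2.27 (adjusted p 2.25e-09, edgeR), and the binding proteins of latent TGF-beta LTBP1 by 0.86 (adjusted p 3.02e-08, edgeR) and LTBP4 by 1.06 (adjusted p 6.04e-06, edgeR).

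Receptors for collagen and fibronectin were called in both directions after shRNA. After siRNA 18 were tested and 2 fell, the integrin chains ITGB3 by 0.97 (adjusted p 0.0496, edgeR) and ITGB6 by 0.71 (adjusted p 0.0930, edgeR). Without siRNA control replicate 1 both calls were lost, at -0.80 and -0.47, and without ETS1 siRNA replicate 2 that of ITGB3, at -0.85. After shRNA 16 were tested, with 2 higher and 6 lower (1 and 9 with scaling by library size alone). Over all genes 29.7% were called higher and 30.9% lower, and whether the receptors depart from these shares was not tested. ITGA2, the collagen-binding integrin chain, fell by 1.65 (adjusted p 2.50e-11, edgeR), ITGA4 by 1.11 (adjusted p 1.99e-08, edgeR) and ITGB5 by 0.68 (adjusted p 4.97e-07, edgeR). CD36, a scavenger receptor that also binds collagen and thrombospondin, was at 63.0 and 76.0 CPM in shCON and 381 and 369 CPM in shETS1, a rise of 2.43 (SE 0.09, adjusted p 6.18e-13, edgeR).

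Of the genes for collagen breakdown 8 were tested in each table, with none called after siRNA by edgeR or DESeq2, none at an unadjusted p under 0.05, and 5 higher and 2 lower after shRNA. MMP13, collagenase 3, was at 417 and 298 CPM in siRNA control and 365 and 514 CPM in ETS1 siRNA, which overlapped, and at 129 and 137 CPM in shCON and 1095 and 1086 CPM in shETS1. It rose by 3.03 (SE 0.08, adjusted p 2.78e-14, edgeR) after shRNA. CTSK, a cysteine protease of collagen, rose by 0.80 (adjusted p 9.35e-07, edgeR) and PEPD, a dipeptidase for proline-containing peptides, by 0.52 (adjusted p 1.59e-05, edgeR). MMP2, a gelatinase, fell by 1.41 (adjusted p 1.23e-09, edgeR). MMP9, also called lower, had at most 15 counts in shCON and 3 in shETS1. It passed the filter only through shCON, so it could only be called lower.

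**Figure D5:**
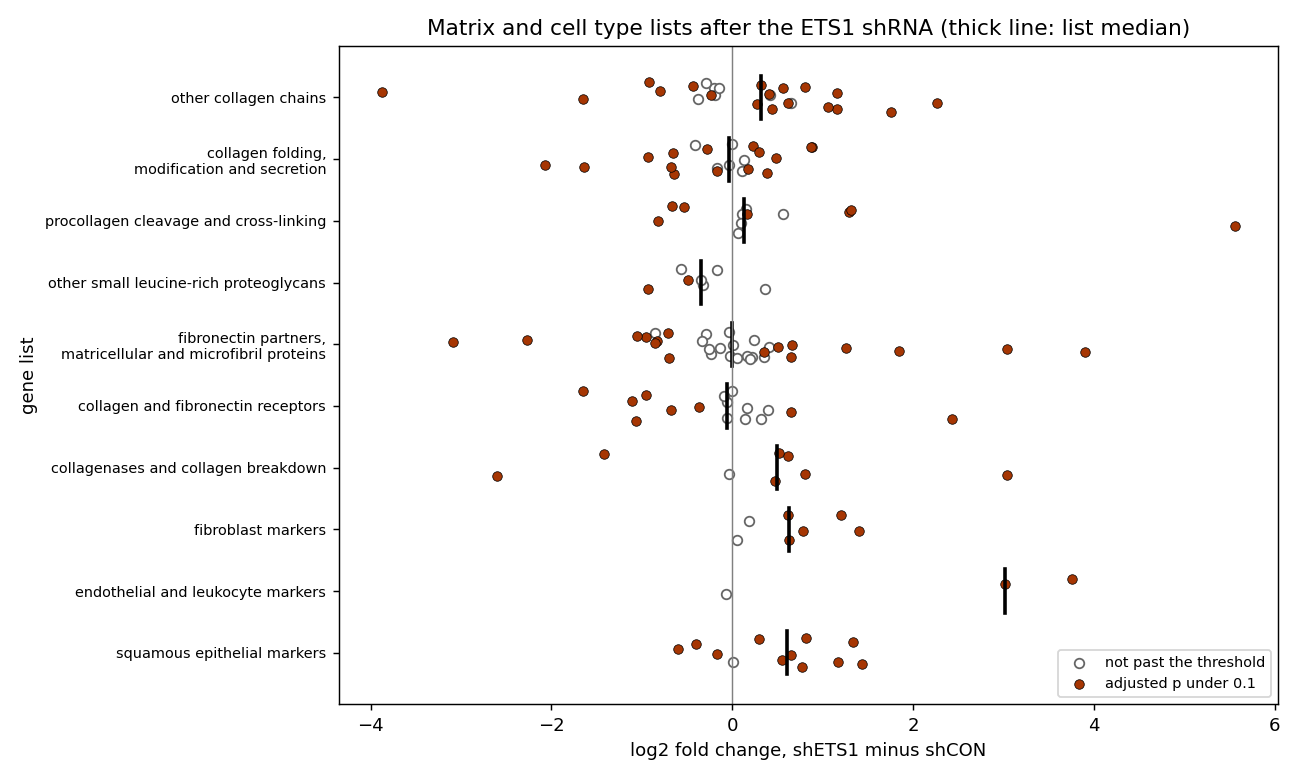
Log2 fold change after the ETS1 shRNA of the tested genes of each list, with filled points for those at an adjusted p under 0.1, open points for the others and a thick line at the list's median. Most lists have filled points on both sides of 0, and the 10 genes described above are in none of them.

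Markers of cells that could be present beside the carcinoma cells were read from the same fits. In bulk libraries fewer cells of a type and less RNA per cell cannot be told apart. Of 18 fibroblast markers 9 were tested after siRNA with none called by edgeR or DESeq2 and none at an unadjusted p under 0.05. After shRNA 7 were tested, with 5 higher and none lower, beside 29.7% of all genes called higher. With scaling by library size alone 4 were higher and 0 lower. The summed level of the 18 markers was 111 and 128 CPM in siRNA control and 124 and 121 CPM in ETS1 siRNA. It was 46.9 and 44.9 CPM in shCON and 81.3 and 76.4 CPM in shETS1. In any library TCF21 had no count, CD248 at most 1 and DPT at most 4, while PDGFRB had up to 18 in the siRNA and 9 in the shRNA table and THY1 up to 34 and 4. PDGFRA, a growth factor receptor of fibroblasts, had up to 49 counts in the siRNA table, 34 in shCON and 82 in shETS1, and rose by 1.20 (adjusted p 0.000591, edgeR) after shRNA. ACTA2, smooth muscle actin, rose by 0.78 (adjusted p 0.0512, edgeR), with up to 43 counts in shCON and 50 in shETS1. Its mean was 1.17 CPM (SD 0.69) in shCON and 2.01 CPM (SD 0.05) in shETS1. The gene overlaps FAS and STAMBPL1, which can share reads with it. TWIST2, with up to 163 counts, and MFAP5, with up to 137, were at 0.18 and 0.06 and were not called. FAP, also in the list for collagen breakdown, rose by 0.61 (adjusted p 0.000128, edgeR), S100A4 by 0.62 (adjusted p 0.00165, edgeR) and TAGLN, a smooth muscle actin-binding protein, by 1.40 (adjusted p 8.33e-09, edgeR).

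Of 12 endothelial and leukocyte markers 2 were tested after siRNA with none called by edgeR or DESeq2 and none at an unadjusted p under 0.05. After shRNA 3 were tested, with 2 higher, KDR and TEK, beside 29.7% of all genes called higher. TEK had 2 and 3 counts in shCON and 16 and 24 in shETS1. It passed the filter only through shETS1, so it could only be called higher. KDR had 46 and 44 counts in shCON and 550 and 600 in shETS1, a rise of 3.76 (adjusted p 9.84e-13, edgeR), while PECAM1 had no count in any library. The summed level of this list was 5.88 and 6.04 CPM in shCON and 28.8 and 27.8 CPM in shETS1, and 3.001 to 3.92 CPM over the siRNA libraries. All 12 squamous epithelial markers were tested in both tables, with none called by edgeR after siRNA, though 5 had an unadjusted p under 0.05 and DESeq2 called 4, and 8 higher and 3 lower after shRNA. Without ETS1 siRNA replicate 2 edgeR called 4 of them after siRNA, without ETS1 siRNA replicate 1 it called 3, and without siRNA control replicate 2 it called 1. Their summed level was 17254 and 22128 CPM in siRNA control, 29361 and 25423 CPM in ETS1 siRNA, 17549 and 17698 CPM in shCON, and 29981 and 29565 CPM in shETS1. KRT6A and KRT17, keratins of stratified epithelium, rose by 0.81 (adjusted p 1.54e-06, edgeR) and 1.17 (adjusted p 5.41e-09, edgeR), and the junction proteins DSG3 and PERP by 1.43 (adjusted p 3.85e-10, edgeR) and 1.33 (adjusted p 1.17e-09, edgeR). The 3 called lower after shRNA were EPCAM at -0.60 (adjusted p 4.45e-06, edgeR), TP63 at -0.40 (adjusted p 0.00127, edgeR) and SFN at -0.17 (adjusted p 0.0693, edgeR). CDH1 was not called, at 0.008. The part of these markers in the collagen and proteoglycan values was not tested.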

How the data were processed

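Per the labels and the methods of the study, TruSeq RNA libraries were read as short single-end reads, mapped to GRCh37 with TopHat2 2.1.1 and Bowtie2 2.2.6, and assigned to genes with featureCounts 1.5.0. The authors deposited 2 tables, 1 per knockdown, of read counts for each gene symbol that had not been normalized. Use of strand and of reads with several matches is not given in the sources used here, so that overlapping genes can share reads. The members and gene lists were chosen with earlier results of these data known.

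The 4 libraries of a table were fitted together, knockdown against control, by the two-sided quasi-likelihood test (edgeR 4.0.16, R 4.3.3) after TMM scaling, with filterByExpr and Benjamini-Hochberg adjustment over all genes tested, at an adjusted p under 0.1. A standard error is the fold change divided by the square root of F. List genes are named by adjusted p, up to 4 called per list and knockdown with at least 5 CPM, besides the 10 members, ETS1, FLI1, genes nearest on the chromosome and, for 5 members, 3 genes of like pattern. EPCAM, TP63, SFN and CDH1 were named outside this rule, to show squamous markers that were not called higher. CPM is the count per 1000000 of the scaled library size. Exon lengths are those of GENCODE v44, lifted to GRCh37. The test was tested on simulated data. Alternatives were DESeq2 1.42.0, its size factors, library size only, other filters, a block for the replicate number, a single fit of the 8 libraries, a threshold of 0.05, another gene length and leaving out each library.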

Additional observations from a re-analysis of the deposited data

Results flagged for a closer look

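The shRNA effect minus the siRNA effect, in log2 units, passed an adjusted p of 0.1 (edgeR, all 8 libraries) for 48 of 73 genes. The 73 are genes described above. EPCAM, TP63, SFN and CDH1 are not among them, and of these SFN passed, at -0.60. Over all 17190 genes tested the share was 34.8%. The members and most named list genes were picked on values of these same libraries, so nothing is read from the count. For genes chosen on these libraries the values are descriptions. They were 5.13 for POSTN, 3.24 for COL3A1, 2.70 for CCDC80, 2.62 for LUM, 2.33 for DCN, 1.52 for COL1A2 and 1.36 for COL5A2.

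For the ETS factor FLI1 the difference was -3.21, and for the targeted gene ETS1 it was 1.23. Among other collagen chains it was 2.19 for COL8A1, 0.82 for COL4A5, 0.82 for COL6A2, -0.76 for COL4A1 and -0.85 for COL4A2. Among genes of folding and secretion it was 0.69 for PLOD2, 0.88 for SEC23A, -1.05 for PLOD3 and -1.57 for FKBP10. For cleavage and cross-linking it was 5.18 for ADAMTS2, 0.62 for TGM2 and -0.68 for PCOLCE2. For proteoglycans it was -0.89 for ECM2 and -0.98 for TSKU.

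Matricellular and microfibril proteins had -2.75 for FBN2, -2.89 for NOV, -0.95 for LTBP1 and -0.82 for LTBP4. Receptors had 2.71 for CD36, 1.26 for ITGB3, 0.68 for ITGB6, -0.80 for ITGA4, -0.94 for ITGB5 and -1.0 for ITGA2. Breakdown genes had 2.72 for MMP13, 0.70 for CTSK, 0.78 for FAP and -1.61 for MMP2. Endothelial markers had 3.49 for TEK and 3.14 for KDR, and the counts of ADAMTS2, TEK and KDR were at most 11, 8 and 5 in the siRNA table. Other markers had 1.29 for TAGLN, 1.07 for DSG3, 1.03 for PERP and 0.71 for KRT17. Genes named for position had 1.39 for BTG1 and -1.48 for ATIC, and those named for a pattern like that of COL1A2 had 1.25 for CXCL14, 1.70 for EPHA4 and 1.54 for PAPLN. The agent, the time and the table cannot be told apart in these differences.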

How the results depend on the processing

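The number of genes called after siRNA, 502, was 797 with DESeq2, 190 at an adjusted p under 0.05, 2166 with all 8 libraries in one fit, 1466 with no filter on low counts, 793 for protein-coding genes of at least 1 TPM, and 72 (without siRNA control replicate 1) to 1478 (without ETS1 siRNA replicate 1) when 1 library was left out. The number of the 10 genes called after siRNA, 1, was 2 with all 8 libraries in one fit and 3 with no filter, and 0 to 2 when 1 library was left out. With the replicate number as a block, 97 genes and 0 of the 10 were called after siRNA, and LOX, TGM2, ITGB3 and ITGB6 also lost their calls, at 0.87, 0.67, -0.96 and -0.70. The deviations of same-numbered libraries correlated at -0.57 in the siRNA table and -0.13 in the shRNA table, and nothing in the labels pairs them. The counts after shRNA, 9988 genes and 8 of the 10, and the 5974 genes called for the difference between the knockdowns stayed within 1.5 times under every alternative run.

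When 1 library was left out, the siRNA fold change ran from -0.14 to 0.83 for COL3A1, -0.20 to 0.21 for COL5A2, -1.41 to 0.74 for POSTN and -0.08 to 0.39 for FN1, and the shRNA fold change of COL5A1 from -0.25 to 0.13. For the 8 genes called after shRNA, no alternative turned the direction. FN1 passed the threshold after shRNA with no filter, at 0.22, and among protein-coding genes of at least 1 TPM, at 0.24. The latter setting and a filter of 10 counts in every library left POSTN untested. When 1 library was left out, the lists had 0 to 4 calls after siRNA for receptors, 0 to 3 for fibronectin partners and related proteins, 0 to 4 for squamous markers, 1 to 2 for cleavage and cross-linking, 0 to 1 for other collagen chains and for breakdown, and 0 for the other lists. Scaling by library size alone lowered the median of all genes after shRNA by 0.13 on the log2 scale. Depth limits POSTN, DCN in the siRNA libraries and the markers with few counts. The causes of these changes were not tested.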
